A study of Mus musculus with 12 samples.

Results

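The genes described here are named as those of proteins of the mitochondrial ribosome, though the protein of Mrps36 belongs to another complex. They were the rows of both deposited count tables whose symbol begins with Mrpl or Mrps and a digit, leaving out symbols that end in -ps. That rule found 80 of the 28008 genes listed in both tables. Of these, 77 are protein-coding genes and 3 (Mrpl23-ps1, Mrps36-ps1 and Mrps36-ps2) are annotated as processed pseudogenes. The pseudogenes had 38, 3 and 4 counts over all 12 libraries and did not pass the filter on low counts, so every value below is over the 77 genes, which passed it in each comparison.

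RNA was sequenced from tissue of C57BL/6N mice, an inbred mouse strain, that were 6 weeks old when an 18-week feeding period began. HFD PCN mice received a high-fat diet and then PCN at 50 mg/kg by intraperitoneal injection once daily for 4 days. HFD Vehicle mice received the same diet and were injected on the same schedule with the carrier alone, 30% DMSO in corn oil. HFD mice received the high-fat diet with no injection listed, and Chow mice received regular chow with no injection listed. PCN is the usual short name of pregnenolone carbonitrile, a compound known to activate the pregnane X receptor of rodents. No allele or transgene is listed for any group. Each group had 3 libraries, each with its own number in the labels. The labels do not state whether libraries came from separate mice, so each p here refers to the spread among these libraries, which may be technical.

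The mitochondrial ribosome translates the few mRNAs that the mitochondrial genome encodes, all of them for subunits of the respiratory chain and ATP synthase. Its 2 ribosomal RNAs come from mitochondrial DNA, while all of its proteins are encoded in the nucleus, made in the cytosol and imported. Part of them descend from the ribosomal proteins of bacteria and part exist in mitochondria only. In white adipose tissue, mitochondrial protein synthesis supplies the respiratory chain of adipocytes and of the immune, vascular and progenitor cells between them. Of the 77 genes, 50 encode proteins of the large subunit and 26 proteins of the small subunit. Mrps30 and Mrps18a are counted in the large subunit, where their proteins sit despite the gene names. Mrps36 is counted in neither subunit, because its protein is known as a part of the 2-oxoglutarate dehydrogenase complex of the citric acid cycle. It stays in all values given for the 77 genes.

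Library totals ran between 11090117 and 27408092 counts. They were 16646176 to 27408092 in HFD, against 11702225 to 13756819 in Chow, and the part of depth in the results was not tested. The title of the series gives gonadal white adipose tissue as the tissue, but duodenum is given as the source of each sample. A list of 15 adipocyte genes summed to between 12552 and 35031 CPM (a count divided by its library's TMM-scaled total, on the per-million scale) in every library, and 9 intestinal epithelial genes to between 10.8 and 55.2 CPM. Mitochondrial ribosomal RNA took 6.05%, 9.66% and 28.7% of the counts in Chow 8, 17 and 19 and 7.49% in HFD Vehicle 50, against 1.4% to 2.54% in the other 8 libraries. HFD Vehicle 50 stood apart from HFD Vehicle 23 and 55, and the main values of the comparisons with HFD Vehicle are given with and without it.

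The summed level of the 77 mRNAs was 1739, 1666 and 1762 CPM in HFD 4, 30 and 38, against 1491, 1363 and 1228 CPM in Chow 8, 17 and 19. It was 1587, 1577 and 1404 CPM in HFD PCN 5, 11 and 27, against 1618, 1233 and 1626 CPM in HFD Vehicle 23, 50 and 55, whose mean was 1492 CPM with and 1622 CPM without HFD Vehicle 50. The HFD libraries lay above all 9 others and close to each other, and the lowest values belonged to Chow 19 and HFD Vehicle 50. The large subunit genes had a mean sum of 1195 ± 30.9 CPM (SD) over the 3 HFD libraries, against 915.2 ± 96.0 CPM (SD) over the 3 Chow libraries. The small subunit genes had a mean sum of 517 ± 18.2 CPM (SD) in HFD, against 441 ± 38.2 CPM (SD) in Chow, and here and below means with ± are over 3 libraries with their SD. The large subunit sum was 2.28 to 2.33 times the small subunit sum in the HFD libraries, against 1.96 to 2.18 times in the Chow libraries. That ratio was 2.22 to 2.36 in HFD PCN, and 2.3, 1.81 and 2.23 in HFD Vehicle 23, 50 and 55.

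**Figure D1:**
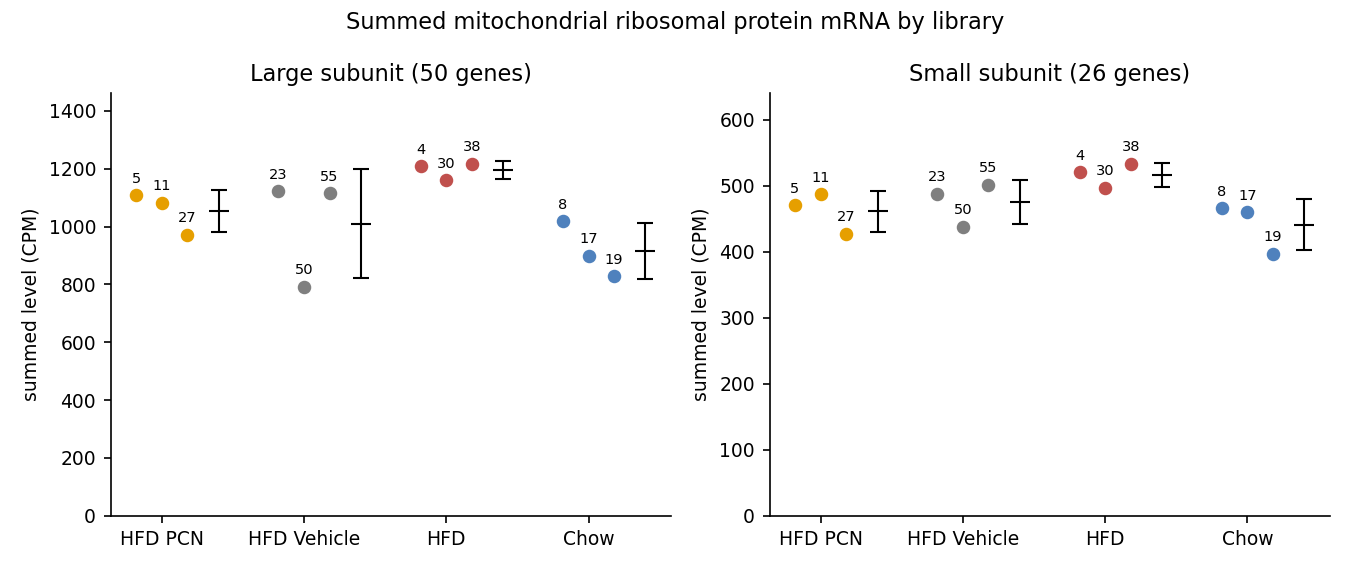
Summed level of the 50 large subunit genes (left) and the 26 small subunit genes (right) in CPM, from 0, in each of the 12 libraries. Points are libraries with their numbers, and bars give mean and SD (n = 3). The HFD libraries lie above the Chow libraries in both panels, and HFD Vehicle 50 lies at 791.2 CPM on the left.

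Levels differed more between genes than between groups. Per kilobase of annotated exon, averaged over the 12 libraries, the 77 genes ran from 29.1 CPM per kb for Mrps21 to 1.73 CPM per kb for Mrps35. The 5 highest were Mrps21 (29.1), Mrpl54 (23.4), Mrpl24 (21.7), Mrpl20 (21.0) and Mrpl34 (20.6 CPM per kb), and the 3 lowest were Mrpl23 (2.64), Mrpl47 (1.81) and Mrps35 (1.73 CPM per kb). Exon length here counts every annotated exon of a gene, so genes with long rare transcripts have low values per kilobase. The spread between libraries of a group, as the median coefficient of variation over the 77 genes, was 4.9% in HFD, against 13.9% in Chow. It was 9.59% in HFD PCN, against 21.7% in HFD Vehicle, or 5.05% over HFD Vehicle 23 and 55 alone. Mrpl24, Mrpl20 and Mrpl34 were closer to each other in this order than Mrpl20 was between groups, at 26.7 CPM per kb in HFD and 17.1 CPM per kb in Chow.

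The first comparison was between HFD and Chow, which differ by diet. The mitochondrial ribosomal protein mRNAs were mostly higher in HFD. Of the 77, 41 rose (53.2%) and 2 fell at an adjusted p under 0.05 in edgeR's quasi-likelihood test, and 34 did not pass. Among all 16216 genes tested in this comparison 59.8% passed, 29.8% higher and 30.0% lower in HFD. The median log2 fold change, HFD over Chow, was 0.39 for the 77 genes and -0.03 for all genes, and 67 of the 77 lay above 0 where 48.6% of all genes did. In 50 of the 77 every HFD library lay above every Chow library, and in 1 every HFD library lay below, where the shares over all genes were 36.0% and 32.4%. In 3 of the 77 the log2 fold change was above 1, and the share over all genes was not computed for this count.

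In the large subunit 29 of 50 genes rose, 1 fell and 20 did not pass, with a median log2 fold change of 0.43. In the small subunit 11 of 26 rose, 1 fell and 14 did not pass, with a median of 0.3. Proteins with a homologue among the ribosomal proteins of bacteria accounted for 44 genes, of which 26 rose and 1 fell (median 0.45). The 28 genes classed as without such a homologue held 12 that rose and 1 that fell (median 0.31). The other 5 genes, Mrps36, Mrps18a and Mrps18b among them, were placed in neither class, and 3 of them rose and none fell (median 0.37). The class of 44 thus leaves out Mrps18a and Mrps18b, which are related to the bacterial protein S18 and both rose. Within the large subunit the counts of genes that rose were 19 of 29 with such a homologue and 9 of 19 classed as without one. Within the small subunit they were 7 of 15 and 3 of 9. As shares these 4 counts are 65.5%, 47.4%, 46.7% and 33.3%, where 29.8% of all genes rose. The medians were 0.51, 0.39, 0.35 and 0.06, so the last class lay near all genes in both values. No test of the difference between these classes was made.

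**Figure D2:**
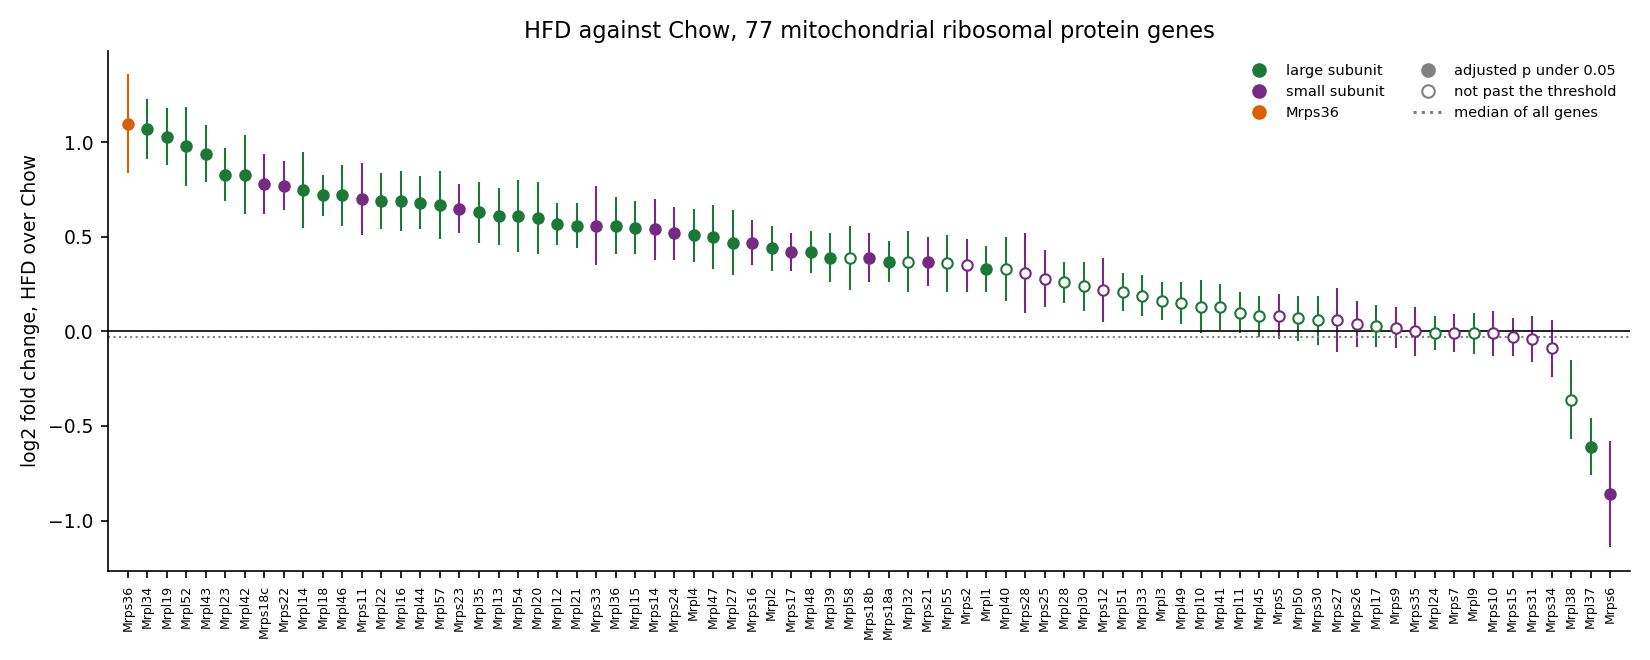
Log2 fold change, HFD over Chow, of each of the 77 genes, ordered by size, with its standard error. Filled points passed an adjusted p of 0.05, colours mark the subunit and the dotted line is the median of all genes, at -0.03. Among the 41 genes that rose and 2 that fell are genes of both subunits, and Mrps36, which belongs to neither. Values run from 1.1 for Mrps36 to -0.86 for Mrps6.

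The largest rise was that of Mrps36 (chr13:100735955-100744659, minus strand, GRCm38), which encodes the small subunit by which the E3 component is held in the 2-oxoglutarate dehydrogenase complex. It had 9.21, 9.33 and 10.8 CPM in HFD 4, 30 and 38, against 6.49, 3.45 and 3.2 CPM in Chow 8, 17 and 19. The groups did not overlap, and Chow 8 was the highest of its group. The log2 fold change was 1.1 ± 0.26 (SE) with an adjusted p of 0.00706.

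Mrpl34 (chr8:71464959-71465747, plus strand), the homologue of a small bacterial large-subunit protein, had 16.0, 16.6 and 18.7 CPM in HFD, against 9.7, 6.89 and 7.08 CPM in Chow. All HFD libraries were above all Chow libraries, with a log2 fold change of 1.07 ± 0.16 (SE) and an adjusted p of 0.000721. Mrpl19 (chr6:81957851-81965958, minus strand), also with a bacterial homologue, had 21.9, 20.4 and 22.5 CPM in HFD, against 12.4, 9.61 and 8.67 CPM in Chow. Its log2 fold change was 1.03 ± 0.15 (SE) with an adjusted p of 0.000516, the smallest of the 77. Of its exon bases 36.0% lie under Gcfc2 on the opposite strand, and the sources used here do not say whether counting used strand, so reads of the pair may not be separable.

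Mrpl52 (chr14:54426909-54429756, plus strand), Mrpl43 (chr19:45005014-45006442, minus strand) and Mrpl42 (chr10:95480805-95501940, minus strand) encode large subunit proteins known from mitochondria only. Mrpl52 averaged 15.6 ± 0.323 CPM in HFD, against 7.67 ± 2.58 CPM in Chow. For Mrpl43 the averages were 26.8 ± 0.36 CPM in HFD, against 13.6 ± 2.68 CPM in Chow, and for Mrpl42 33.2 ± 1.78 CPM in HFD, against 18.1 ± 6.24 CPM in Chow. Their log2 fold changes were 0.98, 0.94 and 0.83. Mrpl43 shares 33.4% of its exon bases with Twnk, the mitochondrial DNA helicase, on the opposite strand, and Twnk itself fell by 0.80 on the log2 scale. In each of the 3 genes every HFD library was above every Chow library.

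Mrpl23 (chr7:142532686-142540747, plus strand), whose bacterial homologue lies beside the exit of the peptide tunnel, had 15.4, 16.4 and 15.3 CPM in HFD, against 9.7, 8.57 and 7.53 CPM in Chow. Its log2 fold change was 0.83. Mrps18c (chr5:100798627-100804471, plus strand) had 8.7, 8.35 and 7.78 CPM in HFD, against 4.93, 4.57 and 4.57 CPM in Chow, with a log2 fold change of 0.78. It is 1 of 3 mouse paralogues of the bacterial S18 protein. The other 2 paralogues also rose, by less: Mrps18b had a log2 fold change of 0.39 (adjusted p = 0.0353) and Mrps18a of 0.37 (adjusted p = 0.0204). Mrps18b and Mrps18c share 30.5% and 23.2% of their exon bases with other annotated genes.

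The 2 genes that fell were Mrpl37 and Mrps6. Mrpl37 (chr4:107055874-107066868, minus strand), for a large subunit protein known from mitochondria only, had 22.2, 20.8 and 21.9 CPM in HFD, against 26.9, 30.8 and 39.3 CPM in Chow. The groups did not overlap, and the log2 fold change was -0.61 ± 0.15 (SE) with an adjusted p of 0.00837. Mrps6 (chr16:92058270-92112227, plus strand) encodes the homologue of bacterial S6, the partner of S18 in the small subunit. It had 18.6, 18.1 and 22.5 CPM in HFD, against 32.0, 50.6 and 21.0 CPM in Chow. Here the groups overlapped, since HFD 38 lay above Chow 19, and the log2 fold change was -0.86 ± 0.28 (SE) with an adjusted p of 0.0283. Leaving out HFD 4, HFD 30, HFD 38 or Chow 17 gave adjusted p-values of 0.0515 to 0.0918, and without Chow 17 the log2 fold change was -0.46. Mrps6 shares 19.9% of its exon bases with Gm49711 on the same strand. It was chosen for description after its values were seen.

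Among genes of known functional sites, Mrpl12, the stalk protein that recruits translation factors, had 26.8, 26.7 and 27.9 CPM in HFD, against 16.9, 19.2 and 17.0 CPM in Chow. Its log2 fold change was 0.57 ± 0.11 (SE) with an adjusted p of 0.00233. Mrpl11, at the base of that stalk, averaged 21.4 ± 0.583 CPM in HFD, against 19.6 ± 1.95 CPM in Chow, with overlapping groups and an adjusted p of 0.484. Mrps12, of the decoding centre, averaged 14.8 ± 1.95 CPM in HFD, against 12.3 ± 2.12 CPM in Chow (adjusted p = 0.279). Mrpl58, the peptidyl-tRNA hydrolase that rescues stalled ribosomes, averaged 15.6 ± 0.389 CPM in HFD, against 11.6 ± 2.96 CPM in Chow, with an adjusted p of 0.0856. Mrps30 averaged 22.1 ± 1.09 CPM in HFD, against 20.7 ± 2.95 CPM in Chow (adjusted p = 0.716).

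Of the genes with the highest or lowest level per kilobase, Mrps21, Mrpl54, Mrpl20 and Mrpl47 rose, with log2 fold changes of 0.37, 0.61, 0.6 and 0.5. Mrpl24 averaged 50.0 ± 2.25 CPM in HFD, against 49.0 ± 1.87 CPM in Chow, and Mrps35 averaged 15.8 ± 1.33 CPM in HFD, against 15.4 ± 1.57 CPM in Chow. Neither passed the test. The 34 genes that did not pass had log2 fold changes between -0.36 for Mrpl38 and 0.39 for Mrpl58, with a median of 0.09. Among the 41 genes that rose the smallest log2 fold change was 0.33, for Mrpl1.

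**Figure D3:**
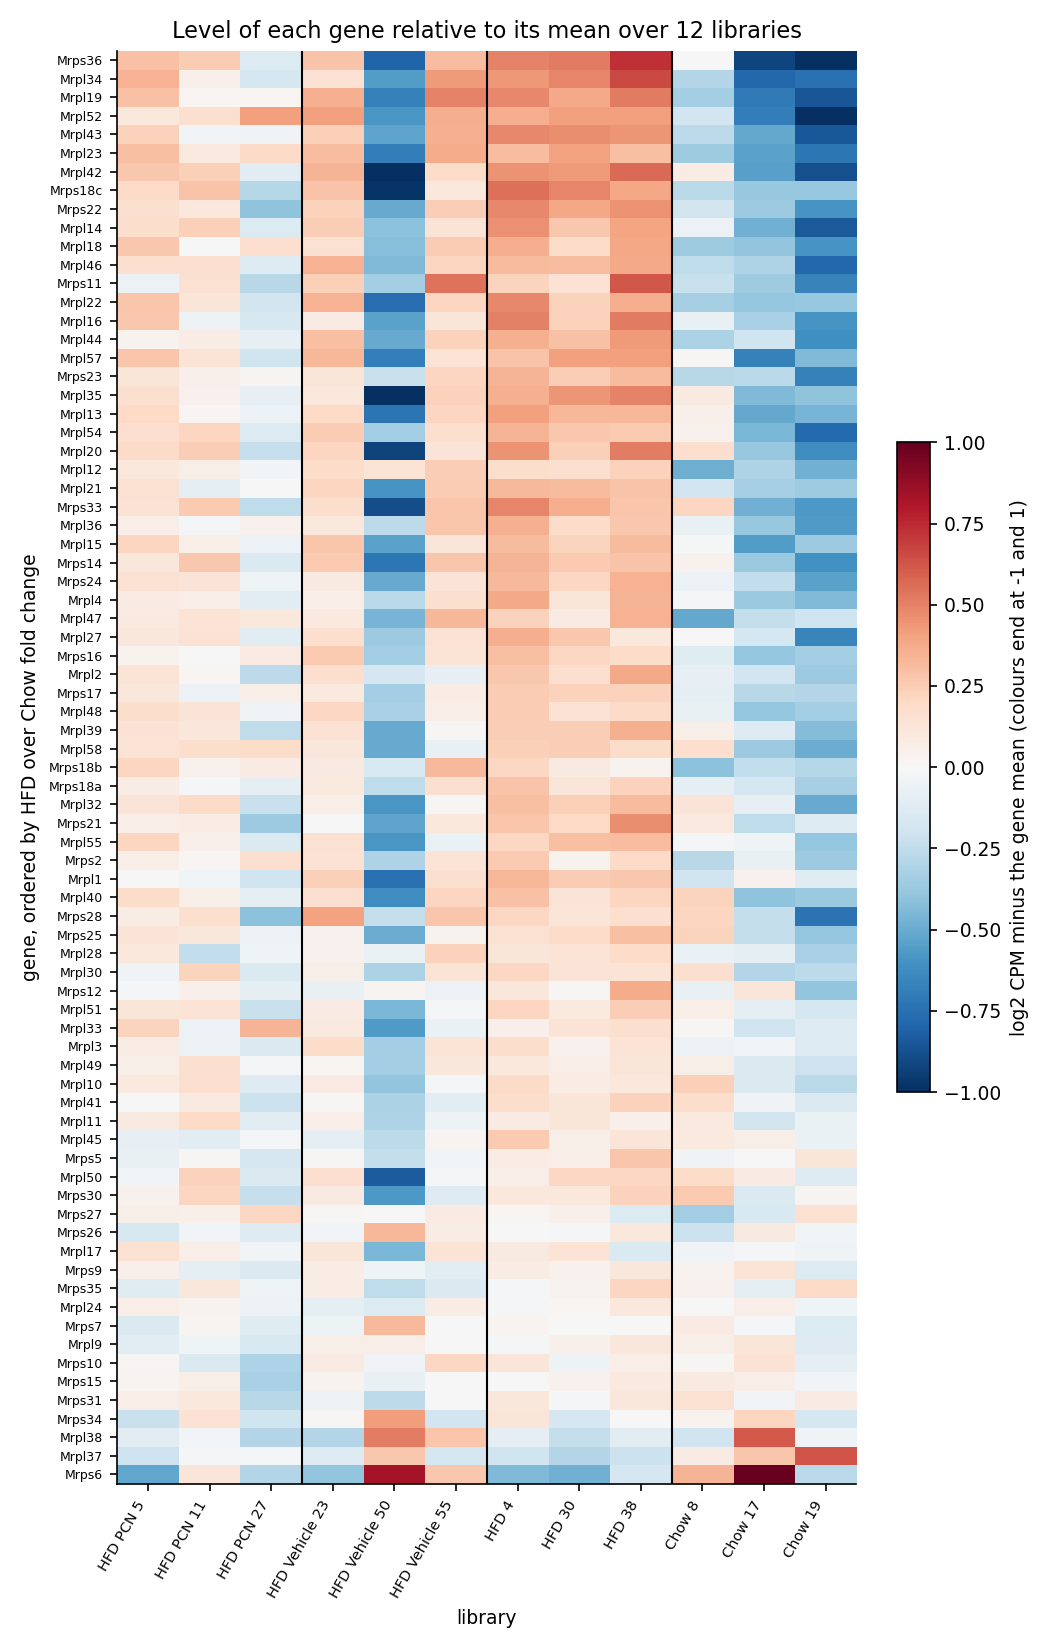
Level of each of the 77 genes (rows, ordered by HFD over Chow fold change) in the 12 libraries (columns), as log2 CPM minus the mean of the gene over the libraries. Red is above and blue below that mean. The HFD columns are red over the upper rows, the Chow columns are blue there with Chow 8 paler than Chow 17 and 19, and HFD Vehicle 50 is blue beside HFD Vehicle 23 and 55.

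The 3 Chow libraries were not alike. Chow 8 was the highest of the 3 for 55 of the 77 genes and Chow 19 the lowest for 51. Without Chow 8 the calls were 50 higher and 3 lower and the median log2 fold change was 0.51, and without Chow 19 they were 36 higher and 2 lower with a median of 0.34. Of the 41 genes that rose, the lowest number left after leaving out 1 library was 27, without HFD 4. Marker genes of several cell types differed between the same groups. Of 16 macrophage genes 15 rose, and the list summed to between 12977 and 14535 CPM in HFD, against 778 to 1799 CPM in Chow. Of 15 adipocyte genes 12 fell, and the list summed to between 13696 and 15769 CPM in HFD, against 31262 to 35031 CPM in Chow. All 17 proliferation genes rose, and they summed to between 699 and 859 CPM in HFD, against 104 to 147 CPM in Chow. All 12 endothelial genes fell and 8 of 10 fibroblast and progenitor genes rose. No gene of these 5 lists was at 0 in any library, and their part in the result was not tested. In these bulk samples fewer cells of a type and less RNA per cell cannot be told apart.

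Log2 fold change had a negative rank correlation with exon length and with mean level over the 77 genes. The calls did not fall steadily with length. Of the 25 genes with the shortest exon length 19 rose, against 12 of the 25 with the longest. Genes of middle length held a smaller share of rises than either. Spearman's rho between log2 fold change and exon length was -0.29 over the 77 genes and -0.07 over all genes with a length. Between log2 fold change and mean level it was -0.46 over the 77 genes, and it was not computed over all genes. These are descriptions across genes of the same libraries. In 17 of the 77 genes over 10% of the exon bases lie under another annotated gene. Besides the named genes already marked for this, they include Mrpl12 (13.1%), Mrpl24 (26.3%) and Mrpl47 (24.2%). Of the other 60 genes 31 rose and 1 fell, with a median log2 fold change of 0.37.

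The promoter windows of the largest rises that have one, of both falls and of Mrpl12, as an example with the NRF1 letters, are shown because genes that move together are often compared for shared upstream letters. Windows of 300 bases, 250 before and 50 after the annotated start, were taken from RefSeq (GRCm38.p6) for 68 of the 77 genes. Motifs known from genes for mitochondrial proteins were searched on both strands. They were GCGCANGCG, bound by nuclear respiratory factor NRF1, CCGGAAG, bound by ETS factors such as the GA-binding protein, and AAGATGGCG, bound by YY1. None of the 3 motifs contains another, but the last letters of the ETS motif (AAG) are the first of the YY1 motif, so these matches can overlap. The letters were chosen after the shares for other spellings had been seen. In the windows below, each written 5′ to 3′ on the strand of its gene, capitals mark a match to any of the 3, read on either strand.
Mrps36: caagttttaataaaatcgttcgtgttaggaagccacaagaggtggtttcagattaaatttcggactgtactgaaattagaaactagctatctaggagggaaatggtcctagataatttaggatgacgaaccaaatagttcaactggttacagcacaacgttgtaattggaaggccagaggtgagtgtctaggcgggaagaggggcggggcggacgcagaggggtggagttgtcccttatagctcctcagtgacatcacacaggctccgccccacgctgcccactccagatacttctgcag
Mrpl34: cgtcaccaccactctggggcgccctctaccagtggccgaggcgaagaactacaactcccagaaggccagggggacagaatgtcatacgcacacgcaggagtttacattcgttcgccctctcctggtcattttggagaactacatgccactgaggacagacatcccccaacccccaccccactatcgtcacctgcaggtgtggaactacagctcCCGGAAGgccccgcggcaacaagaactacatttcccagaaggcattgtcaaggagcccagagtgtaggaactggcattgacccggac
Mrpl52: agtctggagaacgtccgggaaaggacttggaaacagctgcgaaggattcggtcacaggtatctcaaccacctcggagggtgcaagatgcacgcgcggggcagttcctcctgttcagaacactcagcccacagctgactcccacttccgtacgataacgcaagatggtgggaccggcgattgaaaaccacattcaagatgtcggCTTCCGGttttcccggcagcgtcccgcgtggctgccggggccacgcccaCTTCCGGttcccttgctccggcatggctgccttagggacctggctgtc
Mrpl12: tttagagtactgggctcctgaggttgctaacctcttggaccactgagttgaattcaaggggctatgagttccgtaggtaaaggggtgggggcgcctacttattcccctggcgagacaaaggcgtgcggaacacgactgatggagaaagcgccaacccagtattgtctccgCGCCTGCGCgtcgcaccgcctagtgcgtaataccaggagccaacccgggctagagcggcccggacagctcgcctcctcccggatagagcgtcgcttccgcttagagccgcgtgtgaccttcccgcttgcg
Mrpl37: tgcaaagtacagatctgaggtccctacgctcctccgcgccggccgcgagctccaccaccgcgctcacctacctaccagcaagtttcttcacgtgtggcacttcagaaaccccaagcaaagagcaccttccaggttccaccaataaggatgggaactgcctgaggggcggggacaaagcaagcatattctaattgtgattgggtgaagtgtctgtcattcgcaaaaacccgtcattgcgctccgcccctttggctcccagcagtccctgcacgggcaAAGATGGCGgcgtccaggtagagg
Mrps6: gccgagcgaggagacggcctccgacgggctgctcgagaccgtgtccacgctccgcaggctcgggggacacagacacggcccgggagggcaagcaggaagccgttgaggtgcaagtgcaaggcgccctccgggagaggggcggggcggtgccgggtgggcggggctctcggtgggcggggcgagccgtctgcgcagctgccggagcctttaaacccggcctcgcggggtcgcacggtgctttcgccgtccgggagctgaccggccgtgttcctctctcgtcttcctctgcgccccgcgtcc

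The windows lie at chr13:100744610-100744909 for Mrps36, chr8:71464676-71464975 for Mrpl34, chr14:54426659-54426958 for Mrpl52, chr11:120484387-120484686 for Mrpl12, chr4:107066817-107067116 for Mrpl37 and chr16:92058086-92058385 for Mrps6. Those of Mrps36 and Mrpl37 are on the minus strand and the rest on the plus strand. Mrpl34 holds 1 ETS match and Mrpl52 holds 2, Mrpl12 holds 1 NRF1 match and Mrpl37 holds 1 YY1 match. The windows of Mrps36 and Mrps6, at opposite ends of the order of fold changes, held none of the 3 motifs.

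The NRF1 letters were found in 16 of the 68 genes (23.5%), where 7.03% of all genes with a window and 9.63% of protein-coding genes held them. The ETS letters were found in 25 (36.8%), against 9.93% of all genes and 12.9% of protein-coding genes. The YY1 letters were found in 8 (11.8%), against 1.64% of all genes and 2.14% of protein-coding genes. Any of the 3 was present in 41 of 68 (60.3%), against 16.5% of all genes and 21.8% of protein-coding genes. Of the 36 windows of genes that rose 26 held a match (72.2%), and of the 30 windows of genes that did not pass 14 did (46.7%). The ETS letters were in 17 of those 36 (47.2%) and in 8 of those 30 (26.7%), the YY1 letters in 6 (16.7%) and 1 (3.33%), and the NRF1 letters in 8 (22.2%) and 8 (26.7%). A match says that the letters are present in the window, and no test was made of these shares. Since the letters were chosen after shares for other spellings had been seen, the shares here are not independent of that choice.

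Of factors known to bind these motifs, Nrf1, Gabpa (a subunit of the GA-binding protein) and Yy1 were looked at, and none passed the test. Nrf1 averaged 34.0 ± 1.37 CPM in HFD, against 37.7 ± 6.41 CPM in Chow (adjusted p = 0.282). Gabpa averaged 60.2 ± 3.04 CPM in HFD, against 53.9 ± 2.92 CPM in Chow (adjusted p = 0.313), and Yy1 averaged 101 ± 5.14 CPM in HFD, against 88.2 ± 4.04 CPM in Chow (adjusted p = 0.169). Of 10 regulators of mitochondrial biogenesis tested, none rose and 2 fell, both coactivators of the PGC-1 family. Pprc1 had 24.2, 22.2 and 24.5 CPM in HFD, against 32.2, 47.7 and 58.9 CPM in Chow, so that the log2 fold change was -1.0 ± 0.21 (SE, adjusted p = 0.0035). Ppargc1b had 5.44, 6.28 and 4.85 CPM in HFD, against 5.75, 14.4 and 20.0 CPM in Chow, so that the log2 fold change was -1.29 ± 0.39 (SE, adjusted p = 0.021). In Ppargc1b the groups overlapped, since Chow 8 lay below HFD 30.

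The rest of the mitochondrial translation apparatus did not follow the ribosomal proteins as a block. Of 5 mitochondrial ribosome proteins tested under other symbols, 3 rose (Chchd1, Gadd45gip1 and Aurkaip1, with log2 fold changes of 0.91, 0.68 and 0.45) and Dap3 and Ptcd3 did not pass. Of 28 genes for assembly and RNA processing of the mitochondrial ribosome, 7 rose and 4 fell, with a median log2 fold change of -0.11. Over all genes 29.8% rose and 30.0% fell. Slirp, a partner of the mRNA-stabilising protein Lrpprc, had 22.5, 21.3 and 22.5 CPM in HFD, against 11.9, 11.1 and 7.3 CPM in Chow, so that the log2 fold change was 1.08. The pseudouridine synthase Rpusd4, the small subunit assembly factor Rbfa and the helicase Ddx28 rose with log2 fold changes of 0.83, 0.66 and 0.77.

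Of 15 translation factors 3 rose and 2 fell, with a median log2 fold change of 0.19. Tufm, the elongation factor that brings aminoacyl-tRNA to the ribosome, averaged 37.7 ± 0.975 CPM in HFD, against 28.5 ± 2.79 CPM in Chow (log2 fold change 0.36). The back-translocating factor Guf1 rose with a log2 fold change of 0.73. Mrrf and Gfm2, which together recycle the ribosome after termination, had log2 fold changes of -0.56 and -0.41, both past the test. Of 19 genes for charging mitochondrial tRNAs none rose and 6 fell, with a median of -0.14. Vars2 averaged 14.7 ± 2.15 CPM in HFD, against 25.4 ± 2.89 CPM in Chow, and Nars2 averaged 12.3 ± 0.548 CPM in HFD, against 19.6 ± 2.7 CPM in Chow. The shares of these lists, like that of the 10 regulators, are read against all genes, of which 29.8% rose and 30.0% fell. The share of the 19 that fell lay near that of all genes.

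Both ribosomal RNAs that mitochondrial DNA supplies, mt-Rnr1 and mt-Rnr2, fell in HFD. For mt-Rnr1, which the small subunit holds, the levels were 1720, 1700 and 1240 CPM in HFD, against 7850, 10700 and 48200 CPM in Chow, so that the log2 fold change was -3.88 ± 0.73 (SE, adjusted p = 0.0022). For mt-Rnr2, of the large subunit, they were 15800, 15100 and 12400 CPM in HFD, against 54200, 93100 and 335000 CPM in Chow, so that the log2 fold change was -3.52 ± 0.82 (SE, adjusted p = 0.00615). Chow 19 was far above Chow 8 and 17 in both. The sources used here do not say how ribosomal RNA was removed or mRNA selected before sequencing, and the part of that step in these values was not tested. Of 10 mitochondrially encoded mRNAs tested none rose and 5 fell, with a median log2 fold change of -0.47. Of 19 genes for transcription, processing and replication of mitochondrial DNA 3 rose and 7 fell, with a median of -0.33. Among nuclear genes for respiratory chain and ATP synthase subunits, 36 of 78 rose and 3 fell (median 0.31), and among cytosolic ribosomal proteins 78 of 80 rose and none fell (median 1.22).

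**Figure D4:**
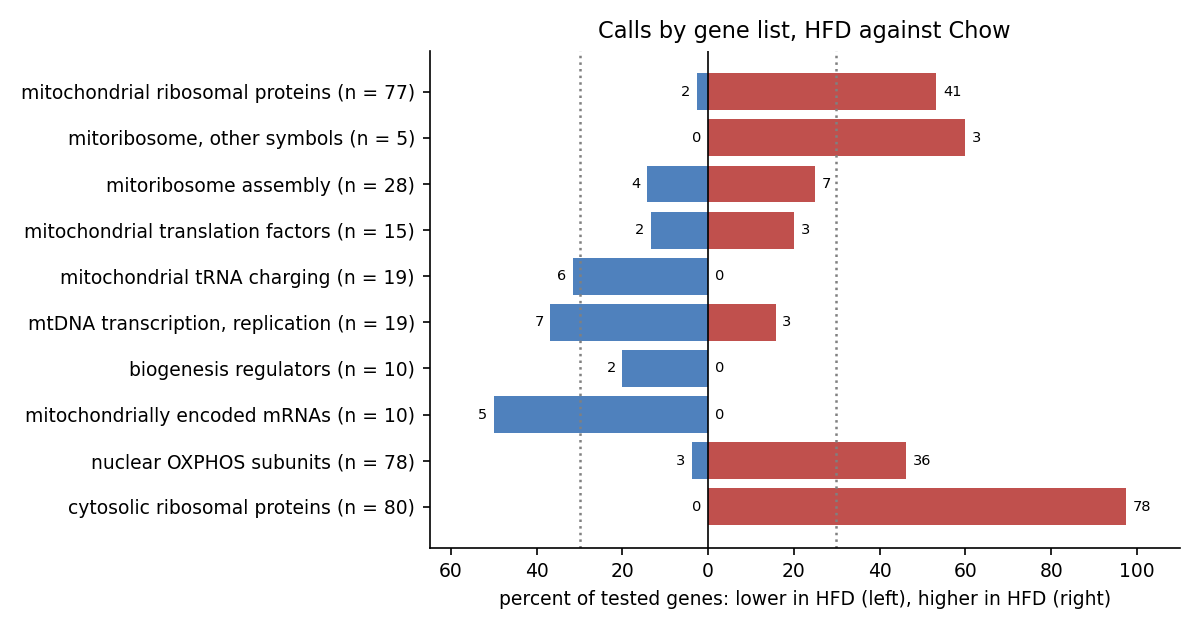
Share of tested genes of each list that fell (left) or rose (right) in HFD against Chow at an adjusted p under 0.05, in percent, with the number of genes beside each bar. Dotted lines mark the shares over all genes, 30.0% lower and 29.8% higher. The mitochondrial ribosomal proteins lie between the nuclear respiratory chain genes and the cytosolic ribosomal proteins on the right, and tRNA charging genes lie on the left.

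The second comparison was between HFD PCN and HFD Vehicle, injected groups on the high-fat diet that differ by the compound. None of the 77 genes passed, and neither did any of the 16563 genes tested (0.0%). At an unadjusted p under 0.05 the numbers were 0 of the 77 and 1.7% of all genes, DESeq2 and limma-voom also called none of the 77, and over all genes they called 2 and 0. The median log2 fold change, HFD PCN over HFD Vehicle, was 0.07 for the 77 genes and 0.0 for all genes, with 53 of the 77 above 0, where 50.0% of all genes were, and a range from -0.52 to 0.33. That lean rested on HFD Vehicle 50. Without it the median was -0.1, 43 of the 77 genes had the opposite sign and 14 of the 77 lay above 0. HFD Vehicle 50 lay below both HFD Vehicle 23 and 55 for 68 of the 77 genes, and it was the lowest of the 9 high-fat libraries for 60.

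The smallest p belonged to Mrps6, which had 17.7, 27.6 and 20.7 CPM in HFD PCN 5, 11 and 27, against 19.3, 45.1 and 30.5 CPM in HFD Vehicle 23, 50 and 55. The groups overlapped, and the log2 fold change was -0.52 ± 0.34 (SE, unadjusted p = 0.17), or -0.18 without HFD Vehicle 50. Mrpl33, of the large subunit, had 25.6, 21.1 and 27.8 CPM in HFD PCN, against 23.5, 14.8 and 21.0 CPM in HFD Vehicle, again with overlap. Mrpl58 had 14.7, 15.1 and 15.2 CPM in HFD PCN, against 14.5, 9.43 and 12.7 CPM in HFD Vehicle. These groups did not overlap, by a margin smaller than the spread within either group, and the log2 fold change was 0.3 ± 0.21 (SE, unadjusted p = 0.201), or 0.14 without HFD Vehicle 50. Mrps26, of the small subunit, and Mrpl38, of the large subunit, had log2 fold changes of -0.24 and -0.33, or -0.13 and -0.16 without HFD Vehicle 50.

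Of the genes that rose most in HFD against Chow, Mrps36 averaged 7.24 ± 1.13 CPM in HFD PCN and 6.59 ± 2.46 CPM in HFD Vehicle. Mrpl34 averaged 12.6 ± 2.28 CPM in HFD PCN and 12.3 ± 3.97 CPM in HFD Vehicle. Mrpl12 averaged 24.5 ± 1.15 CPM in HFD PCN and 27.1 ± 1.08 CPM in HFD Vehicle. Its groups did not overlap, and the log2 fold change was -0.14 ± 0.14 (SE, unadjusted p = 0.347). In 4 of the 77 genes the groups did not overlap, 1 higher and 3 lower, where 3.39% and 2.76% of all genes did so. Without HFD Vehicle 50, which leaves 2 libraries to clear, it was 1 higher and 18 lower, where 10.9% and 10.5% of all genes did so. Mrps12, Mrpl11, Mrps18a, Mrps18b, Mrps18c and Mrps30 had log2 fold changes between -0.02 and 0.2, or between -0.14 and 0.06 without HFD Vehicle 50. Leaving that library out brought no call among the 77, with a smallest adjusted p of 0.8.

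Both injected groups were also set against the HFD group, for which no injection is listed. These comparisons share the HFD libraries, and injection differs between the groups along with the compound or its carrier. In HFD Vehicle against HFD none of the 77 genes and none of all 16781 genes passed (0.0%). DESeq2 and limma-voom called none of the 77, and 109 and 0 of all genes. At an unadjusted p under 0.05 it was 0 of the 77 and 9.77% of all genes. The median log2 fold change, HFD Vehicle over HFD, was -0.24 for the 77 genes and 0.0 for all genes, and 65 of the 77 were below 0 and 12 above, where 49.6% and 50.4% of all genes were. In 29 of the 77 every HFD Vehicle library lay below every HFD library, where 14.7% of all genes did. Without HFD Vehicle 50 the median was -0.09, 66 of the 77 were below 0, every HFD Vehicle library lay below every HFD library in 31 (17.7% of all genes), and 172 of all genes passed, none of them among the 77.

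Mrpl16, of the large subunit, had 12.2, 7.96 and 12.5 CPM in HFD Vehicle, against 16.3, 13.5 and 16.5 CPM in HFD, and the groups did not overlap. Its log2 fold change was -0.48 ± 0.21 (SE, adjusted p = 0.485), or -0.31 without HFD Vehicle 50. Mrps21 had 21.2, 14.7 and 22.7 CPM in HFD Vehicle, against 25.6, 24.2 and 29.1 CPM in HFD. The values of HFD Vehicle 23 and 55 lay closer to HFD than that of HFD Vehicle 50 in both genes. Mrpl32 and Mrpl41, also of the large subunit, had log2 fold changes of -0.41 and -0.29, or -0.24 and -0.22 without HFD Vehicle 50. Mrps6 ran the other way, with 19.3, 45.1 and 30.5 CPM in HFD Vehicle, against 18.6, 18.1 and 22.5 CPM in HFD, and a log2 fold change of 0.7 ± 0.32 (SE, adjusted p = 0.485), or 0.34 without HFD Vehicle 50. Mrpl12 averaged 27.1 ± 1.08 CPM in HFD Vehicle and 27.1 ± 0.672 CPM in HFD.

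In HFD PCN against HFD, 732 of 16927 genes passed (4.32%, with 2.97% higher and 1.35% lower), and none of the 77 did. At an unadjusted p under 0.05 it was 18 of the 77 and 29.5% of all genes. The median log2 fold change, HFD PCN over HFD, was -0.2 for the 77 genes and 0.0 for all genes, and the range of the 77 was -0.46 to 0.15. Of the 77, 70 were below 0 and 7 above, where 49.7% and 50.3% of all genes were. In 39 of the 77 every HFD PCN library lay below every HFD library, where 19.1% of all genes did. DESeq2 called 3 of the 77 lower and limma-voom none. Without HFD PCN 5 edgeR called 11 of the 77 lower, with 5167 of all genes called, whereas without HFD 4 or HFD 38 it called no gene.

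Mrpl43 had the smallest p. It had 22.8, 19.1 and 19.0 CPM in HFD PCN, against 27.1, 26.8 and 26.4 CPM in HFD, with no overlap and a log2 fold change of -0.4 ± 0.1 (SE, adjusted p = 0.0674). Mrpl1, for the homologue of the mobile bacterial L1 stalk protein, had 18.2, 17.8 and 15.8 CPM in HFD PCN, against 22.8, 21.6 and 21.9 CPM in HFD (adjusted p = 0.0758). Mrpl35, Mrpl44 and Mrpl13, all of the large subunit, had log2 fold changes of -0.39, -0.35 and -0.3, and in each the groups did not overlap. Mrpl43, Mrpl1 and Mrpl35 were the 3 that DESeq2 called. Mrpl12 averaged 24.5 ± 1.15 CPM in HFD PCN and 27.1 ± 0.672 CPM in HFD, and Mrpl11 averaged 21.2 ± 2.22 CPM in HFD PCN and 21.4 ± 0.583 CPM in HFD. Macrophage genes summed to 11587, 4769 and 8635 CPM in HFD PCN 5, 11 and 27, against 12977 to 14535 CPM in HFD. None of the 16 macrophage genes passed in this comparison, nor did any of 17 proliferation genes. Of 12 endothelial genes 4 rose, and they summed to 879, 1500 and 1381 CPM in HFD PCN, against 691 to 697 CPM in HFD. Of 14 adipocyte genes tested 2 rose and of 10 mesothelial genes 2 rose, while of 10 fibroblast and progenitor genes 2 fell. The median log2 fold changes of these lists were 0.8 (endothelial), 0.62 (adipocyte), 1.94 (mesothelial), -0.45 (fibroblast and progenitor), -0.66 (macrophage) and 0.02 (proliferation). The part of these differences in the lower values was not tested.

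**Figure D5:**
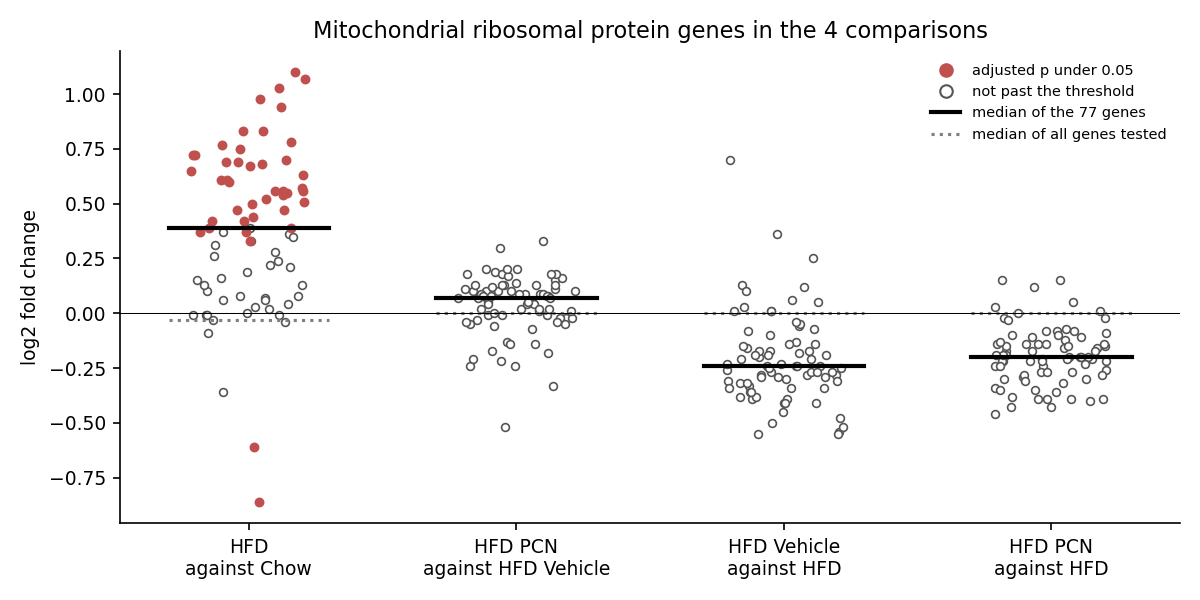
Log2 fold change of the 77 genes in the 4 comparisons, each with the group named first over the other. Filled points passed an adjusted p of 0.05, thick lines are the medians of the 77 genes (0.39, 0.07, -0.24 and -0.2) and dotted lines those of all genes tested. In HFD against Chow 43 points are filled and in the other 3 comparisons none is.

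Set side by side over the 4 groups, Chow had the lowest mean for 51 of the 77 genes and HFD the highest for 64, or for 59 and 63 without HFD Vehicle 50. The HFD PCN mean lay between those of Chow and HFD for 56, and the same count was not made for HFD Vehicle. For the summed level the mean was 1523 ± 103 CPM in HFD PCN and 1492 ± 225 CPM in HFD Vehicle. Without HFD Vehicle 50 the latter was 1622 CPM. HFD Vehicle 23 and 55 lay above every Chow library for 47 and 46 of the 77 genes, and HFD Vehicle 50 did so for 7. Shares over all genes were not computed for these counts of group order and of single libraries, so they are not read as particular to the 77. For scale, every HFD library lay above every Chow library in 36.0% of all genes. Macrophage genes summed to 1474 CPM in HFD Vehicle 50, against 10622 and 13192 CPM in HFD Vehicle 23 and 55, and adipocyte genes to 24478 CPM, against 16683 and 12552 CPM. In Chow these lists summed to 778 to 1799 CPM and 31262 to 35031 CPM. HFD Vehicle 50 thus lay within the Chow range for macrophage genes and below it for adipocyte genes. The part of these differences in the low ribosomal protein values of HFD Vehicle 50 was not tested.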

How the data were processed

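Whole-number counts of reads per gene were deposited by the authors in 2 tables, one for HFD and Chow and one for HFD PCN and HFD Vehicle, made with HISAT2, HTSeq and DESeq2 on GRCm38 (mm10), per the submitters' processing notes, with no versions. The tables' log2 fold changes and adjusted p-values, deposited by the authors, called the same 43 genes in the diet comparison as the fit used here. Groups came from the labels. Counts were scaled by TMM and tested with edgeR 4.0.16 (quasi-likelihood, R 4.3.3) after filterByExpr, each comparison on its own 6 libraries, with the unnormalized counts of both tables joined by gene ID where a comparison crosses them, with Benjamini-Hochberg adjustment over all genes. Levels are CPM over all 12 libraries on 1 TMM scale, and per kilobase use GENCODE M21 merged exons. Library totals, 11090117 to 27408092, limit precision for low genes. Alternatives were DESeq2 1.42.0, limma 3.58.1, other scalings and filters, and single libraries left out. Counts of signs, of non-overlap and of group order without HFD Vehicle 50 were added after seeing the data. The method was tested on simulated counts in which few genes were changed, as many up as down. In HFD against Chow 59.8% of all genes passed, and that setting was not simulated. No per-sample column was left unmatched.

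The genes and lists were chosen with earlier results of these data known. Named genes were the 8 largest non-overlapping rises and falls that passed, or the 5 smallest p where under 3 passed, the 5 highest and 3 lowest levels per kilobase and 9 genes of known role, with Mrps6 added after its values were seen. Of related lists, up to 4 genes with the smallest p were named, and the 3 motif-binding factors in addition.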

Additional observations from a re-analysis of the deposited data

How the results depend on the processing

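No paired analysis was possible because the groups share no library numbers. In HFD against Chow the 41 higher and 2 lower genes became 27 to 50 higher and 1 to 3 lower when 1 library was left out. With all 12 libraries in one fit 1 gene was lower and 32 were higher. DESeq2 and limma-voom called the same 43 genes. Upper quartile scaling moved the median of all genes to -0.13 and that of the 77 genes to 0.29, with 33 higher. Without mitochondrially encoded genes 44 were called. Among named genes Mrps18a, Mrps18b, Mrps21, Mrpl54, Mrpl20, Mrpl47 and Mrps6 lost their call under at least 1 alternative, and Mrpl58 gained one under 2. The cause was not tested. In HFD PCN against HFD, 3 genes were lower with DESeq2 and 0 to 11 when 1 library was left out. In HFD PCN against HFD Vehicle and in HFD Vehicle against HFD no alternative run called any of the 77. Values below about 10 CPM, such as those of Mrps18c and Mrps36, rest on fewer counts in the shallow Chow libraries and HFD Vehicle 50.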
